A study of Rattus norvegicus with 9 samples.

Results

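The mitochondrial chromosome of the rat carried 83 of the 80092 transcripts listed for CD4+ T cells in this study, and they are described here by class of gene and by strand. They were taken by position alone, as every transcript listed on that chromosome, and comprised 13 protein genes, 2 long genes and 22 short genes without a name, and 46 transcripts that had been assembled from the reads. The unnamed genes carry only the number of a reference entry (AY172581 and a suffix). The files give them no type, so the 2 genes of at least 900 bases were set apart from the 22 genes of 60 to 75 bases, which are the lengths of mitochondrial ribosomal RNA and transfer RNA genes, and no single RNA is named for any of them. Coordinates are those of the rn6 assembly, chromosome MT.

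The study sequenced total RNA of CD4+ T cells from rat blood in 3 groups of 3 libraries, all from the SD strain at 8 to 10 weeks of age. The combination group was CIA rats that received a combination of compounds for 4 weeks, the model group was CIA rats, and the normal group was normal rats. CIA was read as collagen-induced arthritis because the study concerns rheumatoid arthritis; the labels do not name the compounds, and both the combination and the model group carry the arthritis. The labels do not say whether the 3 libraries of a group came from separate rats, so p-values measure the spread between libraries, which may be technical. The file headers name the normal libraries N1 to N3, the model libraries M1 to M3 and the combination libraries L1_1 to L1_3. The last of these do not follow the group name of the labels. The headers do not say whether handling differed, and any difference in handling and the treatment cannot be told apart.

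In mammals the mitochondrial chromosome is read on both strands as long precursors. The transfer RNA genes lie between most of the other genes, and the precursors are cut at them, which releases messenger and ribosomal RNAs. Its protein genes code for membrane subunits of respiratory complexes I, III and IV and of ATP synthase, and its ribosomal and transfer RNAs serve the translation of these messengers inside the organelle. One strand (here plus) carries most genes and the other (here minus) carries Mt-nd6 and a minority of the transfer RNA genes; of the 37 reference genes, 28 lay on the plus and 9 on the minus strand. Strand here is that of the listed gene. The kit and the recorded commands are not stated to keep the strand of reads. Levels given for a minus-strand gene, Mt-nd6 among them, can therefore include reads of the plus strand. No sequence is printed, because the reference tables at hand hold no mitochondrial entry.

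Aligned depth was 7.52 to 10.1 gigabases per library. Between 21063 and 27941 of the listed transcripts were at 0 in a library, and combination replicates 1 and 3 had the fewest at 0, 21228 and 21063. The T cell markers (7 of 8 listed, none at 0 in any library) summed to 1658 to 2109 TPM, the authors' measure of abundance per unit of length, in combination, 1375 to 1844 TPM in model and 1885 to 2602 TPM in normal libraries. Of these 7 markers, 3 had a higher mean in combination than in normal libraries and 0 in model than in normal libraries. Cd3g alone ranged from 190 to 879 TPM. Cd4 was at 98.1 to 142 TPM in combination, 76.5 to 186 TPM in model and 202 to 235 TPM in normal libraries. For Cd4 both CIA groups thus lay below normal, and its part in the mitochondrial levels was not tested. Markers of other blood cells were also present. Monocyte markers (6 of 6 listed, none at 0) summed to 349 to 704 TPM in combination, 70.3 to 188 TPM in model and 29.0 to 174 TPM in normal libraries. Platelet markers (8 of 8 listed, 1 at 0 in some library) summed to 78.5 to 127 TPM in combination, 22.7 to 41.5 TPM in model and 14.9 to 36.2 TPM in normal libraries, so both lists stood apart in the combination group. Erythroid markers (7 of 10 listed, 3 at 0 in some library) summed to 261 to 865 TPM in combination, 2408 to 16213 TPM in model and 58.9 to 1122 TPM in normal libraries. Neutrophil markers (8 of 8 listed, 5 at 0 in some library) summed to 5.13 to 8.65 TPM in combination, 0.583 to 8.76 TPM in model and 14.4 to 34.3 TPM in normal libraries, and NK cell markers (6 of 6 listed, 2 at 0 in some library) to 70.1 to 96.6 TPM in combination, 43.0 to 67.3 TPM in model and 95.4 to 152 TPM in normal libraries. Of the 8 neutrophil markers, 3 had a higher mean in combination than in normal libraries, and 0 had a higher mean in model than in normal libraries. The neutrophil difference between combination and normal is thus one of the sum and not of every marker. In bulk RNA, fewer cells of a type and less RNA per cell cannot be told apart.

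Mitochondrial transcripts together held 3.23%, 3.37% and 3.06% of TPM in combination replicates 1 to 3, 2.90%, 3.49% and 2.90% in model replicates 1 to 3, and 4.76%, 3.27% and 4.25% in normal replicates 1 to 3. Normal replicates 1 and 3 were the highest libraries, while normal replicate 2 lay among the CIA libraries, so that the groups overlapped. TPM is a share of each library's transcripts per unit of length, so these values are relative levels. The mean share was 3.22% ± 0.160 in combination, 3.10% ± 0.343 in model and 4.09% ± 0.757 in normal libraries (SD, n = 3 each). On the log2 scale the ratio of group means was 0.06 for combination over model, -0.35 for combination over normal and -0.40 for model over normal; no test was made of a sum over chosen members. Protein genes made up 85.6% to 88.9% of mitochondrial TPM in combination, 87.3% to 93.0% in model and 87.9% to 93.6% in normal libraries.

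The clearest difference lay in the 2 long unnamed genes near the start of the chromosome, which were higher in combination libraries than in either other group. AY172581.24 (plus strand, bases 1094 to 2664, 1571 bases) stood at 1576, 1954 and 2168 TPM in combination replicates 1 to 3, at 1006, 889 and 868 TPM in model replicates and at 776, 455 and 707 TPM in normal replicates. All 3 groups were separate, with combination highest and normal lowest. Its group means were 1899 ± 299.9 TPM in combination, 921 ± 74.3 TPM in model and 646 ± 169 TPM in normal libraries (SD, n = 3 each), a combination mean 2.06 times that of model and 2.94 times that of normal. Each transcript of the series with a mean of at least 1 TPM was fitted on log2(TPM + 1) with limma over all 9 libraries, and p-values were adjusted over the 36340 transcripts tested, with 0.05 as the threshold. AY172581.24 rose in combination over normal libraries by 1.58 ± 0.208 on the log2 scale (SE, adjusted p = 0.0406, higher in 3 of 3 libraries). This was the 1 call among the 70 mitochondrial transcripts that passed the filter, where 0.173% of all transcripts tested were called in that comparison.

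The other long gene, AY172581.9 (plus strand, bases 68 to 1025, 958 bases), showed the same order of groups. It stood at 839.6, 632 and 958 TPM in combination replicates 1 to 3, at 506, 463 and 525 TPM in model replicates and at 387, 201 and 405 TPM in normal replicates. The groups did not overlap in any of the 3 comparisons. Its log2 fold change was 1.33 ± 0.276 for combination over normal (adjusted p = 0.112), 0.68 ± 0.276 for combination over model (adjusted p = 0.275) and 0.65 ± 0.276 for model over normal (adjusted p = 0.282), none past the threshold. For AY172581.24 the same values were 1.03 ± 0.208 for combination over model (adjusted p = 0.0969) and 0.55 ± 0.208 for model over normal (adjusted p = 0.245). The comparisons share libraries, so they do not test the order of the groups independently.

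**Figure D1:**
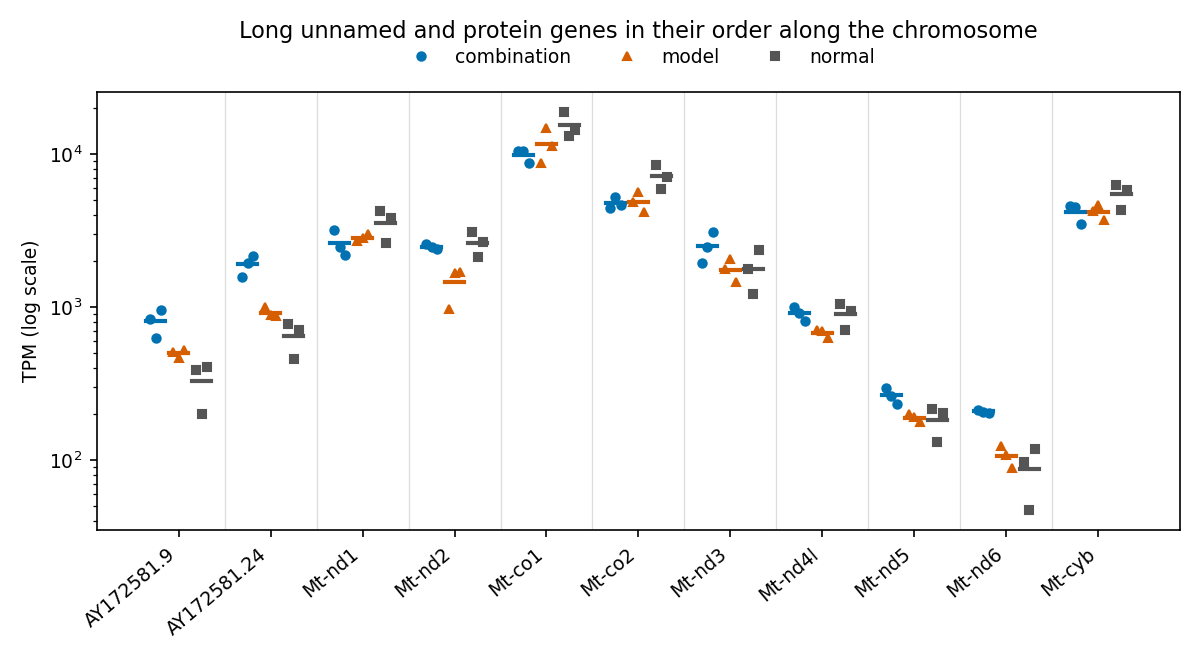
TPM (log scale) of the reference transcripts of the 2 long unnamed genes and of 9 protein genes, in order along the chromosome. Points are libraries and lines are group means. Mt-atp8, Mt-atp6, Mt-cox3 and Mt-nd4 are left out. In model replicate 1 the reference transcript of Mt-nd2 held 45.1% of the read depth over that gene. AY172581.24 lies at 1576 to 2168 TPM in combination, 868 to 1006 TPM in model and 455 to 776 TPM in normal libraries, whereas Mt-co2 lies highest in the normal group.

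With TPM summed to 1 value per gene before the same fit, 14252 genes were tested and more of them were called, 4.15% in combination over model, 3.62% in combination over normal and 4.01% in model over normal. For a gene with 1 transcript the values fitted are the same as before. Its call in this fit is therefore not a second measurement. Of 34 mitochondrial units tested, AY172581.24 was called in combination over model (log2 fold change 1.03, adjusted p = 0.0369) and again in combination over normal (1.58, adjusted p = 0.0144). AY172581.9 was called in combination over normal (1.33, adjusted p = 0.0388). Over the 19 other settings of this fit the adjusted p of AY172581.24 was 0.00937 to 0.0517 in combination over normal, and it was 0.0348 to 0.110 in combination over model. That of AY172581.9 in combination over normal was 0.0278 to 0.103. The rise of AY172581.24 over normal held in this fit whichever library was left out, but over model it held only without normal replicate 2 or model replicate 2, and without any 1 of the other 7 libraries the adjusted p was 0.0542 to 0.110. In the fit of single transcripts its call over normal was likewise lost without any 1 of the 7 libraries other than normal replicate 2 and model replicate 2 (log2 fold change 1.48 to 1.73, adjusted p 0.0511 to 0.104). The call of AY172581.9 over normal was lost without any 1 of the 6 combination and normal libraries (adjusted p 0.0592 to 0.103).

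Measured against the messengers of the same chromosome, the long genes also separated the groups, and such a ratio does not depend on how a library is scaled. The 2 long genes together equalled 8.41%, 8.71% and 12.0% of the TPM of the protein genes in combination replicates 1 to 3, 5.97%, 4.16% and 5.25% in model replicates and 2.61%, 2.17% and 2.98% in normal replicates. The 3 groups did not overlap. AY172581.24 and Mt-nd1, which lie on the same strand with only a short gene between them, stood in a ratio of 0.49, 0.79 and 0.99 in combination, 0.37, 0.31 and 0.29 in model and 0.18, 0.17 and 0.19 in normal libraries. Between the 2 long genes themselves the ratio of AY172581.24 to AY172581.9 was 1.88 to 3.09 in combination, 1.66 to 1.99 in model and 1.74 to 2.27 in normal libraries, which overlap. The monocyte and platelet marker sums given above were also highest in combination libraries, and their part in these levels was not tested. The labels do not say how ribosomal RNA was handled during library preparation.

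**Figure D2:**
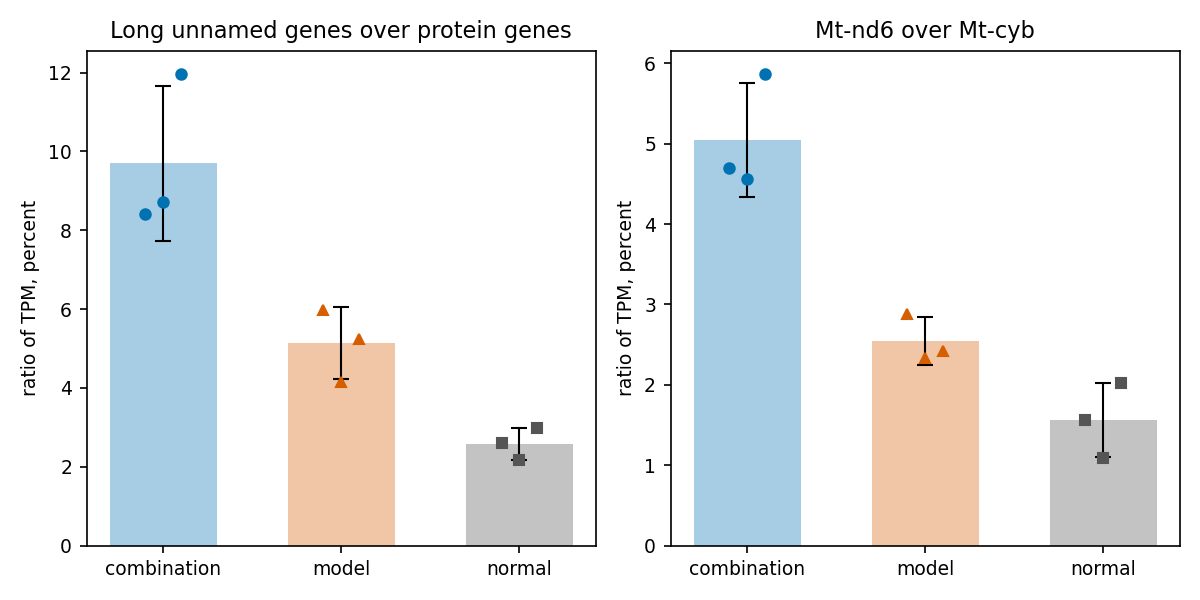
Ratio of TPM in percent for the 2 long unnamed genes over all protein genes (left) and for Mt-nd6 over Mt-cyb (right); bars are group means, error bars SD of 3 libraries and points are libraries. Both ratios are highest in combination (8.41% to 12.0% and 4.57% to 5.86%), intermediate in model (4.16% to 5.97% and 2.33% to 2.88%) and lowest in normal libraries (2.17% to 2.98% and 1.10% to 2.02%).

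Among the protein genes, the subunits of complex I, which takes electrons from NADH, differed from gene to gene. Their sum was 9223, 9344 and 9322 TPM in combination, 6857, 7552 and 7338 TPM in model and 11057, 6842 and 10090 TPM in normal libraries. By that sum combination lay above model, and normal libraries overlapped both. It includes Mt-nd4, whose reference transcript could not be read in all libraries (below). Mt-nd6, the single protein gene of the minus strand (bases 13543 to 14061), stood at 214, 207 and 204 TPM in combination replicates 1 to 3, at 123, 107 and 89.5 TPM in model replicates and at 97.5, 47.1 and 118 TPM in normal replicates. Every combination library lay above every model and normal library, while model and normal libraries overlapped. Its log2 fold change was 0.97 ± 0.315 for combination over model (adjusted p = 0.195) and 1.34 ± 0.315 for combination over normal (adjusted p = 0.129) in the fit of transcripts. Fitted by gene, the value over normal passed the threshold (adjusted p = 0.0465, 0.0368 to 0.140 over 19 other settings), and it was lost without any 1 library other than model replicate 2 (log2 fold change 0.95 to 1.60, adjusted p 0.0511 to 0.140). Mt-nd5, which shares 23 bases with Mt-nd6 on the opposite strand, stood at 297, 263 and 234 TPM in combination, 201, 191 and 178 TPM in model and 216, 132 and 203 TPM in normal libraries. Combination libraries were again the highest, and its log2 fold change was 0.47 ± 0.201 over model (adjusted p = 0.297) and 0.55 ± 0.201 over normal (adjusted p = 0.251).

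Because the ratio of the pair is free of library scaling, it was also compared. Mt-nd6 over Mt-nd5 was 0.72, 0.79 and 0.87 in combination, 0.61, 0.56 and 0.50 in model and 0.45, 0.36 and 0.58 in normal libraries, so combination libraries stood apart from both other groups. Mt-nd6 equalled 4.70%, 4.57% and 5.86% of Mt-cyb, its plus-strand neighbour, in combination, 2.88%, 2.33% and 2.42% in model and 1.56%, 1.10% and 2.02% in normal libraries. The 3 groups did not overlap in that ratio. The monocyte sum (349 to 704 TPM in combination, at most 188 TPM in any other library) and the platelet sum (78.5 to 127 TPM in combination, at most 41.5 TPM in any other library) were also highest in combination libraries, and their part in the level of Mt-nd6 was not tested.

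Mt-nd2, a complex I subunit on the plus strand (bases 3904 to 4942), differed in the model group. It stood at 2567, 2479.9 and 2388 TPM in combination, at 976, 1668 and 1704 TPM in model and at 3106, 2111 and 2671 TPM in normal libraries. Model libraries were below all others, with log2 fold changes of 0.82 ± 0.225 for combination over model (adjusted p = 0.153) and -0.89 ± 0.225 for model over normal (adjusted p = 0.121). In model replicate 1 part of the reads of this gene had been given to an assembled transcript that joins Mt-nd2 to genes downstream (MSTRG.17808.1, 601.8 TPM in that library and at or near 0 in the other 8). Read depth over the gene was therefore also taken, whatever transcript had received the reads. It sums the mean coverage listed for each exon, weighted by the bases shared with the gene. A gene inside a longer assembled exon thus takes that exon's mean. Set to the TPM scale, the depth of Mt-nd2 was 2567, 2479.9 and 2388 in combination and 2164, 1668 and 1704 in model libraries. In normal libraries it was 3106, 2111 and 2671. On that measure model and normal libraries overlapped while combination libraries remained above model libraries. The model group was also apart in 2 marker sums, the erythroid one (at least 2408 TPM in model, at most 1122 TPM in any other library) and the NK cell one (at most 67.3 TPM in model, at least 70.1 TPM in any other library), and their part in the level of Mt-nd2 was not tested.

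The other complex I genes overlapped more. Mt-nd1 stood at 3193, 2478 and 2199 TPM in combination, 2696, 2835 and 2993 TPM in model and 4224, 2626 and 3791 TPM in normal libraries. Mt-nd3 stood at 1942, 2476 and 3072 TPM in combination, 1764, 2054 and 1454 TPM in model and 1767, 1214 and 2360.2 TPM in normal libraries. Neither gene separated any pair of groups. Mt-nd4l stood at 1008, 921 and 808 TPM in combination, 712, 695 and 630.1 TPM in model and 1043, 711 and 945 TPM in normal libraries; combination lay above model (0.42 ± 0.156 on the log2 scale, adjusted p = 0.238), and the model and normal ranges overlapped.

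Genes of complex IV, which passes electrons to oxygen, were the most abundant messengers read on the chromosome, and their group means were lower in both CIA groups than in the normal group. Mt-co1, its catalytic subunit, stood at 10528, 10536 and 8703 TPM in combination, 8782, 14709 and 11326 TPM in model and 18721, 13112 and 14324 TPM in normal libraries. Every combination library lay below every normal library (log2 fold change -0.62 ± 0.199, adjusted p = 0.210), and the model group overlapped both. Its own transcript held at least 84.4% of the read depth over the gene in every library. By that depth, set to the TPM scale, Mt-co1 was at 10531, 10538 and 8706 in combination, 10400.5, 14712 and 11329 in model and 19814, 14845 and 15683 in normal libraries, so that on this measure the model libraries too lay below all normal libraries. Mt-co2, the subunit that receives electrons from cytochrome c, stood at 4411, 5274 and 4639 TPM in combination, 4828, 5606 and 4158 TPM in model and 8487, 5918 and 7039 TPM in normal libraries. Both CIA groups lay below all normal libraries, with log2 fold changes of -0.57 ± 0.153 for combination over normal (adjusted p = 0.160) and -0.55 ± 0.153 for model over normal (adjusted p = 0.144), while combination and model overlapped. The neutrophil sum was likewise lower in both CIA groups (at most 8.76 TPM) than in the normal group (at least 14.4 TPM), and its part in the levels of these genes was not tested. Mt-cyb, the complex III subunit cytochrome b, stood at 4541, 4531 and 3478 TPM in combination, 4271, 4612 and 3696 TPM in model and 6236, 4297 and 5844 TPM in normal libraries, and no pair of groups was separate.

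Of the 13 protein genes, 4 could not be read from their own reference transcript: Mt-atp8 and Mt-atp6, the ATP synthase subunits, which share 43 bases, Mt-cox3, the remaining complex IV subunit, and Mt-nd4 of complex I. Mt-atp6 was listed at 0.144 to 0.216 TPM in every library. Mt-atp8 was at 0.173 to 0.214 TPM in 7 libraries but at 574 TPM in model replicate 1 and 5.37 TPM in normal replicate 3. Mt-nd4 stood at 1.61, 519 and 417 TPM in combination, 386, 0.989 and 289.5 TPM in model and 602, 1.19 and 1.33 TPM in normal libraries. Its own transcript held 0.366% to 0.55% of the read depth over the gene in the 4 libraries at or below 1.61 TPM and 95.5% to 97.4% in the other 5. MSTRG.17808.3, an assembled transcript that runs from Mt-co1 to the end of Mt-nd4 in 3 exons, stood at 331, 176 and 160.1 TPM in combination, 450.4, 296 and 148 TPM in model and 513, 950.5 and 344 TPM in normal libraries.

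Read depth over each gene, taken as above from the mean coverage of exons, removed most of these jumps. On the TPM scale Mt-nd4 was at 330.3, 536 and 437 in combination, 403, 269 and 302 in model and 618, 217 and 363 in normal libraries, with overlapping groups. Mt-atp8 was at 597, 583 and 509 in combination, 948, 562 and 478 in model and 445, 378 and 417 in normal libraries; both CIA groups lay above all normal libraries on this measure, which was chosen after the data were seen. Mt-atp6 lay between 423 and 669 in 8 libraries and at 2802 in normal replicate 3. Mt-cox3 remained uneven, at 6.03, 31.4 and 16.0 in combination, 223, 4.02 and 13.6 in model and 1.63, 1.06 and 3899 in normal libraries, so it was not measured in a form that allows a comparison.

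**Figure D3:**
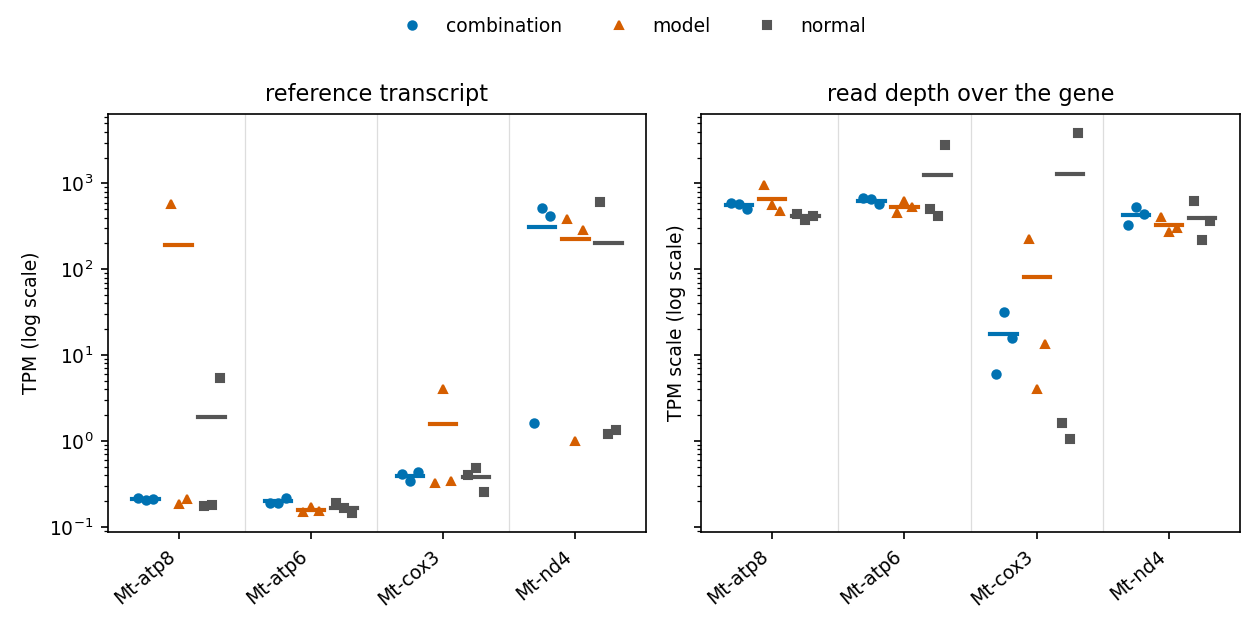
The 4 protein genes whose reference transcript was not readable, as TPM of the reference transcript (left) and as read depth over the gene (right). The depth is on the TPM scale and comes from the mean coverage of exons. Both panels have a log scale, points are libraries and lines are group means. Mt-nd4 spans 0.989 to 602 TPM on the left and 217 to 618 on the right, whereas Mt-cox3 stays spread over 1.06 to 3899 on the right.

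Counted over all 37 reference genes, 13 were higher without overlap and 0 lower in combination over model, where 11.8% of all transcripts tested were separate in the higher and 9.69% in the lower direction. In combination over normal 13 were higher and 5 lower, against 14.3% and 11.0% of all transcripts tested. In model over normal 8 were higher and 6 lower, against 13.7% and 10.7%. These shares cover transcripts that passed the filter, whereas 6 of the 37 genes had not. Of the 31 that passed, 12 were higher and 0 lower in combination over model, 11 and 5 in combination over normal, and 6 and 6 in model over normal. By read depth over the gene, the counts over all 37 were 13 higher and 1 lower, 13 and 7, and 6 and 7 in these 3 comparisons. The median log2 fold change of the 31 reference genes that passed the filter was 0.35, 0.24 and 0.00 in these 3 comparisons. Of the 70 members in the fit of transcripts 0 were called in combination over model, where 0.127% of all transcripts were called, and 11 had an unadjusted p under 0.05 (9 higher and 2 lower), as had 16.4% of all transcripts. In combination over normal 20 had such a p (12 higher and 8 lower), against 15.7% of all transcripts. In model over normal 0 were called, against 0.201% of all transcripts, and 15 had an unadjusted p under 0.05 (7 higher and 8 lower), against 17.1%. Of the 34 units fitted by gene, the numbers called were 1 in combination over model, 5 in combination over normal and 2 in model over normal, against 4.15%, 3.62% and 4.01% of all genes. Those 5 include AY172581.17, which passed the filter only through the CIA libraries in which it was high.

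The short unnamed genes were summed by strand. Reads over 60 to 75 bases can come from a longer RNA that covers them, so their TPM is a level of RNA over those bases. That RNA can be of either strand, because the libraries are not stated to keep the strand of reads. The minus-strand short genes summed to 183, 162 and 212 TPM in combination, 126, 173 and 146 TPM in model and 64.4, 25.8 and 80.9 TPM in normal libraries. Both CIA groups lay above all normal libraries. The plus-strand short genes summed to 439.9, 387 and 359 TPM in combination, 298, 287 and 284 TPM in model and 517, 254 and 383 TPM in normal libraries, and there combination lay above model while normal libraries overlapped both. Of the 9 reference genes of the minus strand, 3 of them below the filter, 6 were higher without overlap in combination over normal and 4 in model over normal by the TPM of the reference transcript, and 0 were lower in either. Of the 6 that passed the filter these were 5 and 3, beside 14.3% and 13.7% of all transcripts tested. Among the 6, AY172581.21 (bases 3761 to 3831) passed the filter through model replicate 3. There its own transcript held 98.2% of the read depth over the gene, against 0.0269% to 0.56% in the other libraries. By read depth over the gene, 6 of the 9 were higher and 2 lower in combination over normal, and 2 were higher and 1 lower in model over normal. For genes of 60 to 75 bases that depth can be the mean of a longer exon, so neighbours need not be separate readings. The neutrophil sum also separated both CIA groups from normal, in the other direction, and its part in these levels was not tested.

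Of the 4 minus-strand genes between Mt-nd2 and Mt-co1, 3 passed the filter, and their group means were higher in both CIA groups than in the normal group. AY172581.18 (bases 5081 to 5152) stood at 51.1, 43.0 and 50.2 TPM in combination, 35.1, 56.1 and 42.1 TPM in model and 20.2, 6.40 and 22.1 TPM in normal libraries. Its log2 fold change was 1.67 ± 0.421 for combination over normal (adjusted p = 0.140) and 1.54 ± 0.421 for model over normal (adjusted p = 0.139), and combination and model overlapped. AY172581.22 (bases 5010 to 5078) and AY172581.10 (bases 5185 to 5252) had log2 fold changes of 1.74 ± 0.456 and 1.44 ± 0.418 for combination over normal, and of 1.67 ± 0.456 and 1.39 ± 0.418 for model over normal, none past the threshold. In read depth over the genes, AY172581.10 was at 47.5 to 54.7 in combination, 41.3 to 84.6 in model and 14.9 to 47.2 in normal libraries, so its model and normal libraries overlapped on that measure. AY172581.18 was at 58.7, 52.2 and 56.3 in combination, 45.3, 78.5 and 55.8 in model and 27.4, 13.8 and 45.0 in normal libraries by that measure. Both CIA groups were still above normal, but the nearest model and normal libraries were at 45.3 and 45.0, and the means were 59.9 in model and 28.7 in normal libraries. AY172581.22 was at 32.8 to 36.6 in combination, 24.3 to 45.9 in model and 5.65 to 16.2 in normal libraries. The remaining gene of the 4, AY172581.7 (bases 5256 to 5321), was below the filter, and its read depth was 10.5, 13.2 and 6.55 in combination, 14.3, 52.6 and 14.0 in model and 13.3, 14.5 and 79.9 in normal libraries. Its combination libraries lay below all others, while model and normal libraries overlapped. AY172581.19, a minus-strand gene elsewhere that was also below the filter, was at 9.52, 3.91 and 4.35 in combination, 2.21, 7.07 and 3.76 in model and 29.1, 18.5 and 17.3 in normal libraries, with both CIA groups below normal.

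AY172581.20 (minus strand, bases 14062 to 14130), which lies next to Mt-nd6, showed the same order of group means as that gene. It stood at 53.8, 48.9 and 88.9 TPM in combination, 37.8, 17.2 and 23.3 TPM in model and 11.9, 8.23 and 21.3 TPM in normal libraries. Combination libraries were above all others, and model and normal libraries overlapped. Its log2 fold change was 2.18 ± 0.414 for combination over normal (adjusted p = 0.0969) and 1.28 ± 0.414 for combination over model (adjusted p = 0.193). Fitted by gene, it rose in combination over normal (adjusted p = 0.0308, 0.0161 to 0.111 over 19 other settings); without combination replicate 1, combination replicate 2, normal replicate 1 or normal replicate 2 the adjusted p was 0.0783 to 0.111. The monocyte and platelet sums were highest in combination libraries too, and their part in this level was not tested.

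On the plus strand, 4 short genes between Mt-co2 and Mt-nd5 had lower means in both CIA groups than in the normal group. AY172581.23 (bases 11538 to 11605), in the same stretch, did not. Its mean read depth was 24.3 in combination, 14.3 in model and 22.2 in normal libraries. AY172581.11 (bases 11665 to 11735) stood at 20.0, 16.2 and 14.7 TPM in combination, 11.9, 17.4 and 12.5 TPM in model and 54.2, 25.1 and 41.2 TPM in normal libraries. AY172581.1 (bases 7693 to 7756) stood at 17.1, 11.1 and 12.1 TPM in combination, 10.7, 10.7 and 7.78 TPM in model and 34.4, 19.0 and 28.7 TPM in normal libraries. Both separated the 2 CIA groups from normal, as did the neutrophil sum, whose part in these levels was not tested. Fitted by gene, both fell in model over normal, AY172581.1 by 1.38 (adjusted p = 0.0286, 0.0147 to 0.0996 over 19 other settings) and AY172581.11 by 1.42 on the log2 scale (adjusted p = 0.0321, 0.0127 to 0.105). The call of AY172581.1 was lost without any 1 normal library, model replicate 1 or model replicate 3, and that of AY172581.11 without any of these or combination replicate 2, with adjusted p-values of 0.0525 to 0.0996 and 0.0525 to 0.105. Fitted by transcript, the adjusted p-values were 0.0785 and 0.0879. For combination over normal the log2 fold changes were -0.96 ± 0.273 for AY172581.1 and -1.14 ± 0.299 for AY172581.11 (adjusted p = 0.175 and 0.153). AY172581.5 and AY172581.16 had log2 fold changes of -1.07 ± 0.295 and -0.88 ± 0.401 for combination over normal and of -1.01 ± 0.295 and -1.35 ± 0.401 for model over normal, none past the threshold.

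AY172581.17 (plus strand, bases 11606 to 11665), which adjoins AY172581.11, went the other way. It stood at 12.2, 17.5 and 19.0 TPM in combination, 12.9, 0.339 and 12.8 TPM in model and 0.272, 0.262 and 0.271 TPM in normal libraries. All combination libraries and 2 of 3 model libraries were far above the normal group, in which the gene was near the lower end of listed values. It passed the filter of a mean of at least 1 TPM only through those higher libraries, which limits what its call over normal can show. In the fit of genes it rose in combination over normal by 3.74 on the log2(TPM + 1) scale (adjusted p = 0.0406, 0.000207 to 0.131 over 19 other settings), and the call was lost without any 1 combination or normal library (adjusted p 0.0645 to 0.131). The adjusted p in the fit of transcripts was 0.116. Read depth over its bases was 12.5, 17.8 and 19.2 in combination, 13.1, 0.63 and 13.0 in model and 1.18, 0.68 and 0.96 in normal libraries, and there model and normal libraries overlapped.

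**Figure D4:**
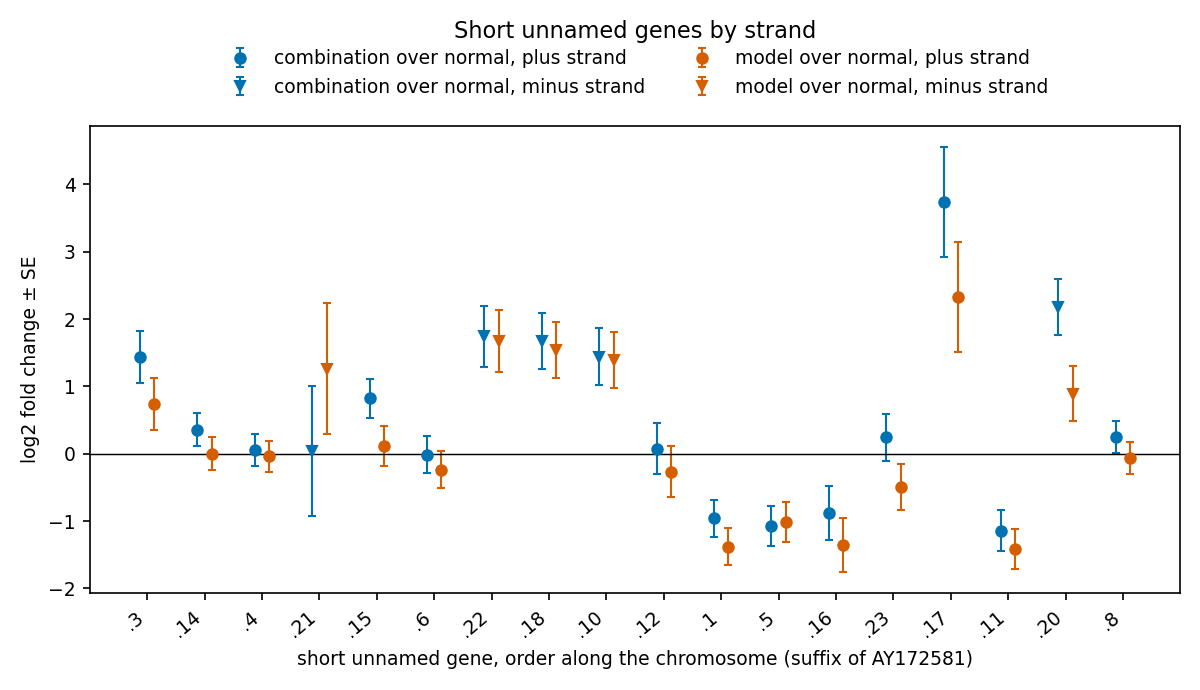
Log2 fold change with SE (limma, transcripts) of the 18 short unnamed genes that passed the filter, in order along the chromosome, for combination over normal and model over normal; circles are plus-strand and triangles minus-strand genes. AY172581.22, AY172581.18 and AY172581.10 lie at 1.39 to 1.74 in both comparisons, whereas AY172581.1, AY172581.5, AY172581.16 and AY172581.11 lie at -1.42 to -0.88.

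Of the remaining short genes, the most abundant was AY172581.14, which lies between AY172581.24 and Mt-nd1, at 225, 176 and 156 TPM in combination, 139.7, 144 and 146 TPM in model and 196, 100.5 and 147 TPM in normal libraries. Its combination libraries were above the model libraries, and the log2 fold change was 0.35 ± 0.247 (adjusted p = 0.526). AY172581.15, before Mt-nd2, stood at 66.6, 74.3 and 74.0 TPM in combination, 63.5, 28.0 and 45.9 TPM in model and 50.2, 33.8 and 37.8 TPM in normal libraries, with combination above both other groups. AY172581.3, which lies between the 2 long genes, stood at 8.53, 13.4 and 13.9 TPM in combination, 4.46, 11.3 and 6.17 TPM in model and 5.46, 2.08 and 4.17 TPM in normal libraries. Its rise over normal of 1.44 ± 0.388 on the log2 scale was not past the threshold (adjusted p = 0.163). The 4 short genes that did not pass the filter were AY172581.13, AY172581.7, AY172581.19 and AY172581.2, each below 1 TPM in every library.

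The 46 assembled transcripts varied widely between libraries of a group. Of these, 45 had several exons, although mammalian mitochondrial messengers are not spliced, and 40 lay on the minus strand, each with several exons. The kit and the recorded commands are not stated to keep the strand of reads, so reads of the 2 strands over the same bases cannot be told apart. Together the minus-strand assembled transcripts summed to 188, 723 and 541 TPM in combination, 165, 355 and 498 TPM in model and 506, 361 and 553 TPM in normal libraries, with overlapping groups. Values jumped within groups: 40 were at 0 in at least 1 library, 3 reached 1 TPM in every library and 14 reached 1 TPM in a single library. The 3 of the highest mean were MSTRG.17808.3 (above), MSTRG.17808.4, which stood at 2674 TPM in normal replicate 3, 539.8 TPM in model replicate 1 and below 0.3 TPM in the other 7 libraries, and MSTRG.17808.1. Of the 39 in the fit of transcripts 0 were called in any comparison, where 0.127%, 0.173% and 0.201% of all transcripts were called. An unadjusted p under 0.05 was found for 3, 4 and 2 in combination over model, combination over normal and model over normal. Over all transcripts tested the shares with such a p were 16.4%, 15.7% and 17.1%.

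Nuclear genes were examined as a list of 66, of which 58 were tested in the fit of genes. The list holds genes that copy, transcribe, cut, modify or stabilise mitochondrial nucleic acids, regulators of mitochondrial biogenesis such as Nrf1, Yy1 and Myc, and matrix proteases such as Lonp1. In combination over model 5 were called, 1 higher and 4 lower, against 2.16% and 1.99% of all genes tested. Ssbp1, the mitochondrial single-strand DNA-binding protein, rose by 1.00 ± 0.224 on the log2 scale (adjusted p = 0.0469), at 28.4, 42.2 and 30.0 TPM in combination, 22.1, 13.8 and 13.5 TPM in model and 16.4, 17.7 and 16.0 TPM in normal libraries. The 4 that fell were Pus1, a pseudouridine synthase of transfer RNAs (fell by 1.05, adjusted p = 0.0266), Mrm3, a methyltransferase of mitochondrial ribosomal RNA (fell by 0.98, adjusted p = 0.0365), Mto1, which modifies mitochondrial transfer RNAs (fell by 0.80, adjusted p = 0.0411), and Polg, the catalytic subunit of the mitochondrial DNA polymerase (fell by 0.92, adjusted p = 0.0495). Each of these 4 was below all model libraries in 3 of 3 combination libraries. The monocyte and platelet sums also separated combination from model libraries, and their part in the levels of these 5 genes was not tested.

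In combination over normal 4 of the list were called, 1 higher and 3 lower, against 2.02% and 1.60% of all genes tested. Slirp, which with Lrpprc stabilises mitochondrial messengers, rose by 0.74 (adjusted p = 0.0463), at 13.3, 14.5 and 15.0 TPM in combination, 11.8, 8.57 and 10.2 TPM in model and 9.09, 7.72 and 7.66 TPM in normal libraries. Pus1 fell by 0.91 (adjusted p = 0.0344). Elac2, the enzyme that cuts the 3′ end of transfer RNA precursors, fell by 1.19 (adjusted p = 0.0360), at 7.96, 7.36 and 5.96 TPM in combination, 10.3, 18.7 and 12.9 TPM in model and 18.1, 19.5 and 14.8 TPM in normal libraries. Myc, a transcription factor that promotes cell growth and one of the regulators on the list, fell by 1.50 (adjusted p = 0.0410), at 42.5, 44.2 and 43.4 TPM in combination, 47.4, 74.4 and 30.1 TPM in model and 110.7, 176 and 99.5 TPM in normal libraries. In model over normal 1 was called, Myc (fell by 1.38, adjusted p = 0.0469), where 2.32% of all genes tested were higher and 1.69% lower. The monocyte and platelet sums were apart in combination libraries, the neutrophil sum in normal libraries, and their part in these 4 genes was not tested.

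The core transcription factors of the chromosome were not called in any comparison. Tfam, which packages the chromosome and starts its transcription, stood at 72.1, 81.6 and 69.1 TPM in combination, 76.0, 85.1 and 66.2 TPM in model and 64.0, 63.8 and 60.2 TPM in normal libraries. Polrmt, the mitochondrial RNA polymerase, stood at 24.0, 20.1 and 15.0 TPM in combination, 17.1, 27.5 and 17.2 TPM in model and 27.2, 28.7 and 21.4 TPM in normal libraries. The list's median log2 fold change was 0.04, -0.02 and -0.02 for combination over model, combination over normal and model over normal, beside 0.03, 0.04 and -0.01 over all genes tested. The numbers called depended on single libraries. Without any 1 library they were 0 to 5 in combination over model and 0 to 12 in combination over normal. In model over normal they were 0 to 8. The highest number in combination over normal, and in model over normal, came without model replicate 2. Calls over all genes rose there too, to 1490 and 2682 of 14294 in these 2 comparisons. With all libraries they were 516 and 572 of 14252.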

How the data were processed

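RNA-seq of 9 libraries was analysed from the tables that the authors deposited, 1 per library. Per the labels, Trizol was used for the RNA and an NEBNext Ultra kit for the libraries. Per the submitters' processing notes, HISAT2, bcl2fastq and the rn6 genome were used, and the version of StringTie, per the file headers, was 1.3.3b, run on a fixed, merged set of transcripts. Each line of the deposited tables holds, in other text attributes, coverage, FPKM and TPM as the authors' run computed them; the sources used here give neither read counts nor read length, so no counting intervals could be derived. How reads with several matches, such as nuclear copies of mitochondrial sequence, were placed is likewise not given. Depth was computed from the ratio of coverage to FPKM.

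Transcripts of any chromosome with a mean of at least 1 TPM were fitted by limma (version 3.58.1, R 4.3.3) on log2(TPM + 1), with 1 coefficient per group over all 9 libraries, an intensity trend and Benjamini-Hochberg adjustment. Fold changes on this scale understate those of low transcripts. A fit of TPM summed per gene was planned as an alternative, and the list of nuclear genes was read from it. Alternatives changed the pseudocount, filter, unit, scaling, libraries and model. Read depth over gene bodies weighted the mean coverage listed for each exon by the bases it shared with the gene on the same strand. This measure, and alternatives within the fit of genes, were chosen after seeing the data. The fit was checked on simulated data. Tables were handled in Python 3.11.15 with pandas 2.3.3, numpy 2.4.6 and matplotlib 3.10.9. All protein genes and long genes were named, and of the short genes, assembled transcripts and nuclear genes those called in either fit and the 3 most abundant of a class. AY172581.21, AY172581.22, AY172581.10, AY172581.7, AY172581.19, AY172581.5, AY172581.16, AY172581.23, AY172581.3, Tfam and Polrmt fell outside this rule and were named after their values were seen. The members and lists were chosen with earlier results of these data known.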

Additional observations from a re-analysis of the deposited data

How the results depend on the processing

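Among mitochondrial transcripts past the threshold, a pseudocount of 0.1 gave 1 in combination over model and 2 in combination over normal, against 0 and 1 as reported. Over all 36340 transcripts that setting called 57 and 78, against 46 and 63 as reported. In combination over normal, a pseudocount of 5, no filter, FPKM, median-ratio scaling and no intensity trend gave 0 each. A mean of at least 5 TPM gave 1 in model over normal, where 0 were reported. That filter called 247 of 13945 transcripts there, against 73 of 36340 as reported. The fit of genes gave 1, 5 and 2 in combination over model, combination over normal and model over normal. With each library left out in turn the numbers were 0 to 1, 0 to 2 and 0 to 1. The rise of AY172581.24 over normal in the fit of transcripts stayed past the threshold in 8 of 22 alternatives and kept its direction in the other 14 (log2 fold change 1.34 to 1.73, adjusted p 0.0321 to 0.158), and no call changed direction. The log2 ratio of summed mitochondrial TPM moved by less than the spread between libraries under every alternative run, and ranged with 1 library left out from 0.0098 to 0.15 in combination over model, from -0.48 to -0.22 in combination over normal and from -0.54 to -0.28 in model over normal.

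Of the list of nuclear genes, 5, 4 and 1 were past the threshold as reported in combination over model, combination over normal and model over normal. No filter gave 1, 0 and 0, median-ratio scaling 8, 8 and 2, and a fit of only the 2 groups compared 0, 12 and 0. Over all genes no filter called 257, 188 and 83 of 28631, and median-ratio scaling 1564, 1416 and 1297 of 14249. The fit of only 2 groups called 28 of 14216, 1270 of 14365 and 86 of 14037. A mean of at least 5 TPM gave 3 in combination over model, where 388 of 9366 genes were called. FPKM gave 9 in combination over normal and 2 in model over normal, where a pseudocount of 0.1 and no intensity trend gave 0 each. Over all genes FPKM called 1181 and 1061 of 12533 in these comparisons. In model over normal a pseudocount of 0.1 called 525 and no intensity trend 498 of 14252. With 1 library left out the numbers were 0 to 5, 0 to 12 and 0 to 8. The 12 and the 8 came without model replicate 2, where 1490 and 2682 of all 14294 genes were called. The cause of these changes was not tested.

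With the replicate number as a block, 0 mitochondrial transcripts were called in combination over normal, against 1 as reported, and 0 of the nuclear list in each comparison. Libraries of the same number had correlations of residuals of -0.024 to 0.030 over 9 pairs, and 4 of 9 libraries correlated best with one of their own number, so the number was not taken to pair them. Among mitochondrial units in the fit of genes, FPKM gave 2, 10 and 5 calls and median-ratio scaling 0, 11 and 7. Omission of model replicate 2 gave 1, 13 and 7. Calls rose over all genes too. FPKM called 1306, 1181 and 1061 of 12533 genes, and median-ratio scaling 1564, 1416 and 1297 of 14249. Omission of model replicate 2 called 1212, 1490 and 2682 of 14294, against 592, 516 and 572 of 14252 as reported. Depth is known only as aligned bases, so no detection limit could be set for transcripts near 0.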
